A study of Homo sapiens with 4 samples.

Results

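The genes described here carry retinol into the cell, turn it into retinoic acid and read the acid in the nucleus. Of 9 symbols, STRA6, CRABP1, CRABP2, RARA, RARB, RARG, ALDH1A3, DHRS3 and CYP26B1, 8 were found among the 19626 genes of the deposited tables, and CRABP1 was not analysed here. The set was chosen from these same libraries because STRA6 was near 0 in the control and clearly present after knockdown, so the levels and fold changes of its genes are given as a description, with no test.

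ES-2 is an ovarian cancer cell line, labelled as clear cell carcinoma, that carries the YAP1-MAML2 fusion, in which the part of YAP1 that binds TEAD transcription factors is joined to the activating part of the Notch co-activator MAML2. The study compared its transcriptome, by RNA-seq, with and without knockdown of the fusion. Cells received pLKO.1 lentivirus with a nontargeting control shRNA (shCtl, n = 2) or an shRNA to MAML2 (shM2-3, n = 2), for 8 h on consecutive days, and RNA was taken 96 h after the first infection according to the labels. The study's methods give a shorter time both for each infection and until RNA was taken. Both groups were grown with fetal bovine serum and all received virus; the labels name no further allele or agent. The hairpin acts on native MAML2 as well as on the fusion, 1 cell line and 1 hairpin were sequenced, and effects of the fusion, of native MAML2 and of the hairpin itself cannot be told apart. The labels and the study's methods call the replicates biological, and the methods do not say whether each had its own infection. The labels name no added retinoid, and retinoid content was not measured in these files.

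The 4 libraries held between 20051083 and 23978660 estimated counts. MAML2 RPKM, reads per kilobase of transcript scaled to the mapped reads of the library, was 8.61 and 8.26 in shCtl and 3.11 and 2.998 in shM2-3, and its log2 fold change was -1.40 (SE 0.0688, adjusted p = 5.18e-10 in edgeR's quasi-likelihood test, adjusted after Benjamini and Hochberg). YAP1, counted with any fusion reads that fall in it, was 0.42 higher on the log2 scale (SE 0.0365, edgeR adjusted p = 1.79e-07). The clear cell markers NAPSA and PAX8 were at or under 0.369 RPKM in every library, so the labelled clear cell type had no support from them. The serous marker WT1 was also low, at or under 0.389 RPKM, so these markers name no other ovarian type either. The epithelial keratins KRT8 and KRT18 were present, while EPCAM and CDH1 were near 0.

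Retinol, or vitamin A, circulates bound to a carrier protein and enters some cells through the membrane receptor STRA6. Inside the cell, dehydrogenases turn retinol into retinal and back, an aldehyde dehydrogenase oxidises retinal to retinoic acid, and enzymes of the CYP26 family break the acid down. Retinoic acid binds receptors of the RAR family, which pair with RXR partners on DNA and control transcription, and STRA6, DHRS3, RARB and the CYP26 genes are themselves among the genes that retinoic acid can induce.

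These start regions are shown because they belong to the genes with the widest differences and to the best known receptor target of the acid. Each runs from 250 bases before to 50 bases after a RefSeq transcript start (build GRCh38.p14), 5′ to 3′ on the gene's strand, with matches in capitals to the half-sites AGGTCA or AGTTCA or to the TEAD motif GGAATG on either strand, and in RARB also to the wider repeat described next.
STRA6, chr15:74212210-74212509, minus strand: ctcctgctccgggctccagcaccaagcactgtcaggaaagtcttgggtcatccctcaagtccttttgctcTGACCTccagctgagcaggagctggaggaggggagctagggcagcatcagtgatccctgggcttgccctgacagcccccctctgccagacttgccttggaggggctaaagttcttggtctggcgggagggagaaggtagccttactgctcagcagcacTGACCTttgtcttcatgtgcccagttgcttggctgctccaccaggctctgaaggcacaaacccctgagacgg
DHRS3, chr1:12618161-12618460, minus strand: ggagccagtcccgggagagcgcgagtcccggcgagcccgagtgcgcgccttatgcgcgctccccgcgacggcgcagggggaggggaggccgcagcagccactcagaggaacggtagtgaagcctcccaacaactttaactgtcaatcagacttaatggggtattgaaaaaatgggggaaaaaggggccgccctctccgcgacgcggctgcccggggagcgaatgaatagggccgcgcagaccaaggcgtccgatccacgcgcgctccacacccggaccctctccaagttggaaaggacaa
RARB, chr3:25428013-25428312, plus strand: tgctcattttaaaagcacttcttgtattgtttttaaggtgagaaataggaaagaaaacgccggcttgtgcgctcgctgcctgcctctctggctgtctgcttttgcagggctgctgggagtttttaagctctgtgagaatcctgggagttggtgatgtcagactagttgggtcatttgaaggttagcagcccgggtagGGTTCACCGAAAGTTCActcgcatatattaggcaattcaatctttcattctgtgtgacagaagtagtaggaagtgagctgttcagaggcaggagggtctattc

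The STRA6 window held half-sites starting at positions -180 and -22 from the transcript start, and this DHRS3 window held none of the letters searched. The RARB window held a half-site at -42. As direct repeats with 1, 2 or 5 bases between them, the half-sites were found in 0 of the 19 windows of the 8 genes, and over 35116 windows of all genes such repeats stood in 0.0484%, 0.00570% and 0.0199%. When the first letter of each half-site was allowed to be A or G, a search added after the windows had been seen, the RARB window alone held a repeat, with 5 bases between, at -53; 0.0883% of all windows hold one. A half-site was in 7 of the 19 windows and in 22.6% of all windows, and the TEAD motif was in 5 of the 19, in alternative starts of RARA, RARB and DHRS3, and in 14.0% of all. These matches are descriptions of the letters only.

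STRA6 is the receptor that takes up retinol from its serum carrier. Its gene lies at chr15:74179466-74212267 on the minus strand (hg38, GENCODE 44) with 19 exons. It held 0 and 3 estimated counts in the control libraries and 1370 and 1212 in the shM2-3 libraries, or 0 and 0.0240 RPKM against 9.11 and 8.90 RPKM. Both control libraries were at or under 3 counts, the level that a count of 0 still allows, and both knockdown libraries were far above it. Scaled to library sizes with the TMM factors of the fit, the sum over the knockdown libraries was 779.8 times that of the controls. The exact 95% interval of 267 to 3784 covers counting error only. The fitted log2 fold change of 9.497 stood at rank 4 of the 12157 genes tested, and it moved with the handling of the control: it was 8.57 without shCtl replicate 1, 13.28 without shCtl replicate 2, and 3.31 by limma on log2(RPKM + 1). STRA6 passed the filter, RPKM above 1 in at least 1 library, only through the knockdown libraries. In these unstranded libraries 519 of its 7669 exon bases (6.77%) are shared with CCDC33 on the opposite strand, which was not analysed here.

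**Figure D1:**
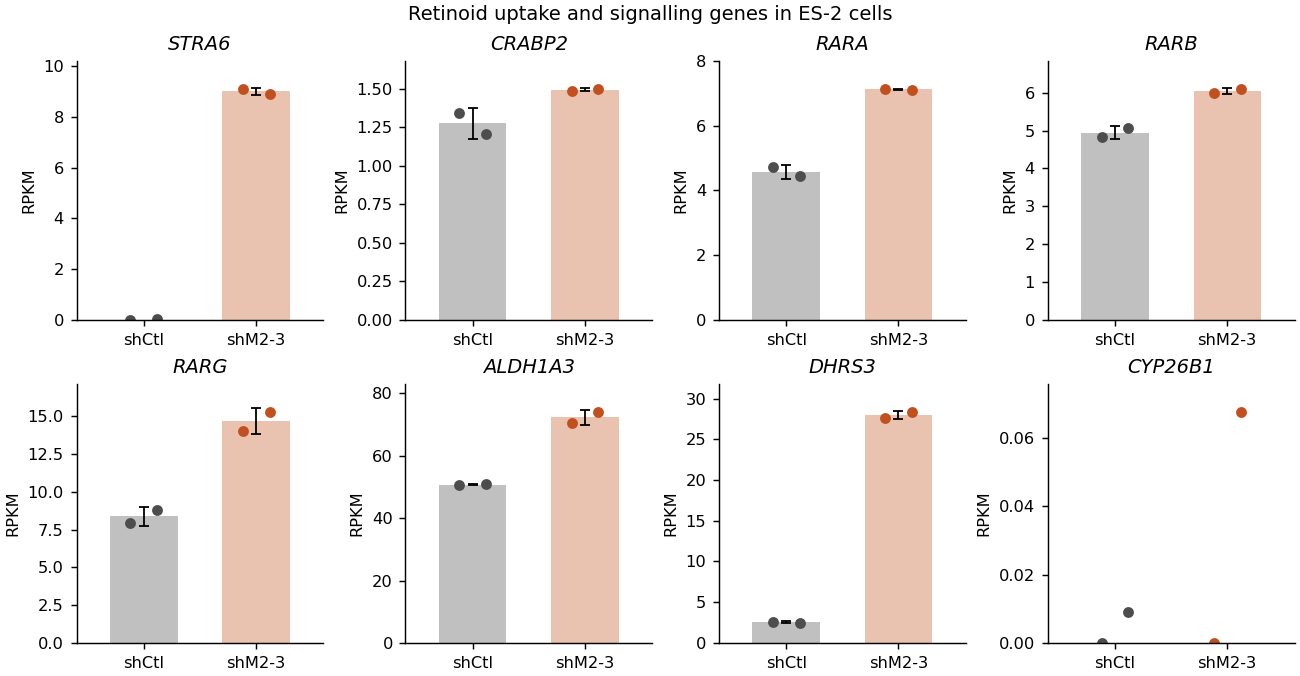
Level in RPKM (y axis, linear, each panel with its own scale from 0) of the 8 genes in the shCtl and shM2-3 libraries; points are libraries, and bars and whiskers give the mean and SD (n = 2), left out where a library is at 0. STRA6 went from 0 and 0.0240 to 9.11 and 8.90 RPKM and DHRS3 from 2.62 and 2.47 to 27.7 and 28.4, while CYP26B1 was at most 0.0677 RPKM.

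The carriers that work beside STRA6 were low in both groups. Of 6 listed genes of retinol transport and binding, 5 were in the tables and 1 was tested. RBP5, a cellular retinol-binding protein, rose from 0.495 and 0.629 RPKM to 1.78 and 1.13 RPKM (log2 fold change 1.44, SE 0.407, edgeR adjusted p = 0.00609). Like STRA6, it passed the filter only through the knockdown libraries. The shM2-3 libraries were both above the shCtl libraries, but these were 17 and 22 against 75 and 43 counts, and without shM2-3 replicate 1 the edgeR adjusted p was 0.0914.

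DHRS3 reduces retinal back to retinol and so withdraws it from acid synthesis. The gene lies at chr1:12567910-12618210 on the minus strand, with 6 exons and no named gene sharing them. Its counts were 174 and 167 in the control and 2248 and 2086 in the knockdown, which is 2.62 and 2.47 RPKM against 27.7 and 28.4 RPKM. The libraries of each group lay close together and far from the other group. The fitted difference was 11.5-fold, log2 3.53 (SE 0.0790), at rank 97 of the 12157 genes, and it kept between 3.48 and 3.57 when any 1 library was left out.

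The other enzymes between retinol and retinal went in both directions. Of 16 listed, 13 were in the tables and 5 were tested, of which 1 was called higher, a rise of at least 2-fold, beside 9.24% of all genes tested, and 3 fell by less than 2-fold at an adjusted p of 0.05 or less, beside 36.4% of all genes lower at that limit. RDH10, the main enzyme for making retinal from retinol in development, was 2.65 and 4.08 RPKM in shCtl and 7.11 and 6.24 RPKM in shM2-3. Its log2 rise was 1.05 (SE 0.148, edgeR adjusted p = 2.24e-05), and the control libraries were wider apart than those of the knockdown. It went under 2-fold without shCtl replicate 1 (0.78) or without shM2-3 replicate 1 (0.96). DHRS4, a retinal reductase, fell by 0.58 on the log2 scale (SE 0.115, edgeR adjusted p = 0.000469), from a mean of 5.99 to 3.83 RPKM; it has close copies next to it, so its counts are uncertain. RDH11, which also reduces retinal and was the most abundant of these enzymes in the control, went from 54.1 ± 0.702 to 37.8 ± 0.891 RPKM (SD, n = 2; edgeR adjusted p = 8.76e-07). Per length, DHRS3 stood at 0.987 and 0.605 times RDH10 in shCtl and at 3.89 and 4.55 times in shM2-3. RDH11 was above RDH10 in both groups.

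Retinyl ester is the storage form of retinol. Of 7 listed, 6 were in the tables and 3 were tested, with 2 lower at an adjusted p of 0.05 or less beside 36.4% of all genes. AWAT2, an acyltransferase that can make retinyl esters, fell from 1.17 and 0.889 RPKM to 0.0986 and 0.0908 RPKM (log2 fold change -3.34, SE 0.521, edgeR adjusted p = 5.98e-05), from 58 and 45 counts to 6 and 5. It passed the filter only through shCtl replicate 1. DGAT1, known mainly for triglyceride synthesis, had a log2 fold change of -0.16 (edgeR adjusted p = 0.0906).

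ALDH1A3 oxidises retinal to retinoic acid. It lies at chr15:100877714-100916626 on the plus strand, with 13 exons, and was the most abundant gene of the set in every library. Its level was 50.7 and 50.8 RPKM in shCtl and 70.5 and 74.0 RPKM in shM2-3, without overlap. The fitted difference was 1.49-fold, log2 0.58 (SE 0.0437). Of its exon bases, 1715 of 5335 (32.1%), are shared with the opposite-strand ALDH1A3-AS1, not analysed here, and reads of the pair cannot be told apart. The related enzymes hardly added to it: ALDH1A1 was at 0 and 1 against 14 and 1 counts, and ALDH1A2 at 3 and 2 against 4 and 1 counts. ALDH1A3 thus made up at least 99.6% of the summed RPKM of these enzymes in each library.

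CYP26B1 and CYP26A1 break retinoic acid down. CYP26B1, at chr2:72129238-72147862 on the minus strand, was at 0 and 1 counts in the control and 0 and 8 in the knockdown, at most 0.0677 RPKM, so the groups overlapped and it was not tested. CYP26A1 was at 0 and 1 counts in the control and at 0 in both knockdown libraries, where a count of 0 allows up to 3. A difference in these enzymes was not detectable at this depth.

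**Figure D2:**
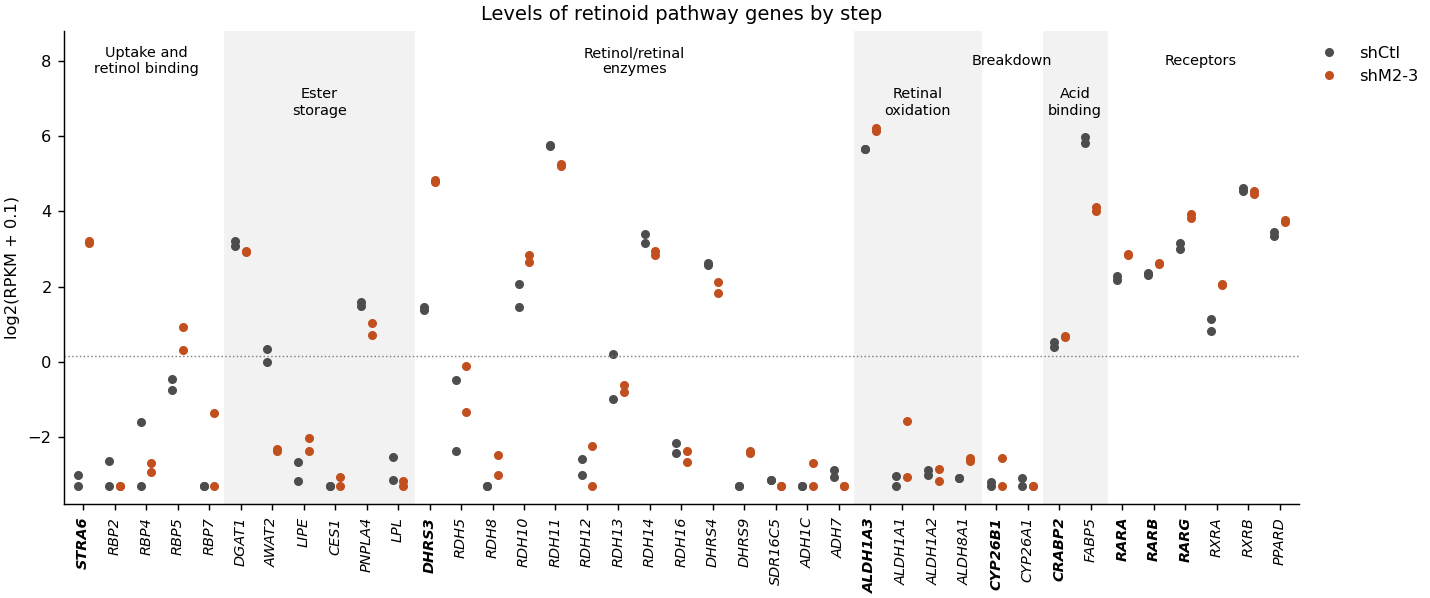
Level of retinoid pathway genes, ordered by step, as log2(RPKM + 0.1) (y axis, log scale) in each shCtl and shM2-3 library; bold names are the 8 genes of the set, the dotted line is 1 RPKM and genes at 0 sit at the bottom. ALDH1A3 lies at the top of the bold genes in both groups, FABP5 and RDH11 lie above it in shCtl, STRA6 and DHRS3 have the widest gap between the groups among the bold genes, and the other retinal oxidases and the CYP26 genes lie far under the line.

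CRABP2 binds retinoic acid and delivers it to the receptors. Its gene lies at chr1:156699606-156705816 on the minus strand, with 4 exons. It was low, at 1.34 and 1.20 RPKM in shCtl and 1.49 and 1.499 RPKM in shM2-3, from 31 to 46 counts. The groups did not overlap, but the log2 difference of 0.29 was smaller than its SE of 0.365. FABP5, a fatty acid-binding protein that can also bind the acid and deliver it to the receptor PPARD, fell from 63.7 and 57.0 RPKM to 16.1 and 17.4 RPKM, log2 -1.78 (SE 0.0940, edgeR adjusted p = 1.11e-09). FABP5 has many near-identical pseudogene copies, so its counts are uncertain. Per length, FABP5 was 47.4 and 47.3 times CRABP2 in shCtl and 10.8 and 11.6 times in shM2-3.

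All members of the receptor family were present in both groups. RARG, at chr12:53210567-53232980 on the minus strand with 10 exons, was 7.91 and 8.83 RPKM in shCtl and 14.1 and 15.3 RPKM in shM2-3, log2 0.88 (SE 0.0774) or 1.83-fold. RARA, at chr17:40309180-40357643 on the plus strand with 9 exons, was 4.74 and 4.43 RPKM against 7.14 and 7.11 RPKM, log2 0.70 (SE 0.0836) or 1.63-fold. RARB, at chr3:24687887-25597932 on the plus strand with 8 exons, was 4.82 and 5.06 RPKM against 5.998 and 6.10 RPKM, log2 0.36 (SE 0.0865) or 1.28-fold.

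For each receptor gene the shM2-3 libraries lay above the shCtl libraries, as they did for 38.9% of all genes tested. Of the receptor genes RARG was the furthest apart and RARB the least. RARA shares 556 of its 4743 exon bases (11.7%) with the opposite-strand RARA-AS1, with 39 and 20 against 69 and 59 counts, few beside the 464 and 442 against 856 and 771 counts of RARA. The summed RPKM of the family was 17.5 and 18.3 in shCtl and 27.2 and 28.5 in shM2-3. RARG made up 45.3% and 48.2% of that sum in shCtl and 51.7% and 53.6% in shM2-3, while RARB made up 27.6% in both control libraries and 22.0% and 21.4% in the knockdown. The share of RARA overlapped between the groups, at 27.1% and 24.2% against 26.3% and 24.9%.

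Of the RXR partners, RXRB was the more abundant, at 23.99 ± 0.969 RPKM in shCtl and 22.6 ± 0.738 RPKM in shM2-3 (SD, n = 2). Its log2 fold change was -0.02 (edgeR adjusted p = 0.754). RXRA rose from 1.67 and 2.09 RPKM to 4.12 and 4.01 RPKM, log2 1.18 (SE 0.104, edgeR adjusted p = 2.26e-07). RXRA made up 6.70% and 7.80% of the summed RXRA and RXRB RPKM in shCtl and 15.7% and 14.8% in shM2-3.

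**Figure D3:**
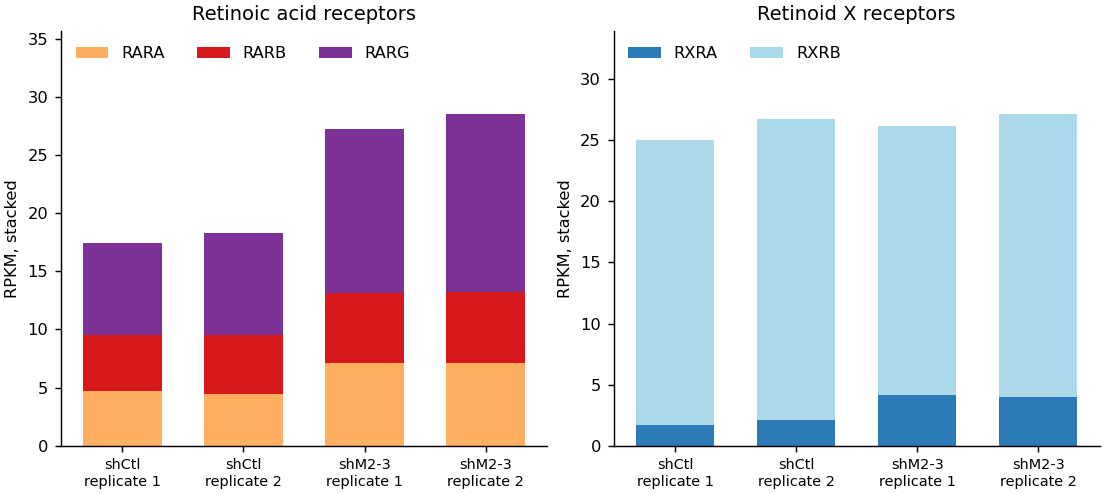
Stacked level in RPKM (y axis, linear from 0) of the retinoic acid receptors RARA, RARB and RARG (left) and of the partners RXRA and RXRB (right) in each of the 4 libraries (x axis). The RAR stack is 17.5 and 18.3 RPKM in shCtl and 27.2 and 28.5 RPKM in shM2-3, and RXRA takes a larger part of the right stack in shM2-3.

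Coregulators set whether the receptors activate or repress. Of 10 listed, 9 were tested and all 9 were higher at an adjusted p of 0.05 or less, against 36.3% of all genes tested, with a median log2 fold change of 0.76 beside -0.0037 for all genes. By the 2-fold limit as well, only NRIP1 was called. NRIP1, a corepressor that binds receptors carrying their ligand, rose from 12.2 and 11.3 RPKM to 38.4 and 34.2 RPKM, log2 1.69 (SE 0.0576, edgeR adjusted p = 1.13e-11). NCOR1, which represses with receptors that carry no ligand, had the smallest difference, log2 0.35. NCOA2, a coactivator, stood at 0.99, just under 2-fold. Transcript length moved with this list: 8 of the 9 lie above percentile 75 of length among the genes tested, a range in which 48.2% of genes were higher at an adjusted p of 0.05 or less with a median log2 fold change of 0.14. The part of length in the result was not tested. None of the 7 tested genes of the STRA6 set lies in that range.

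**Figure D4:**
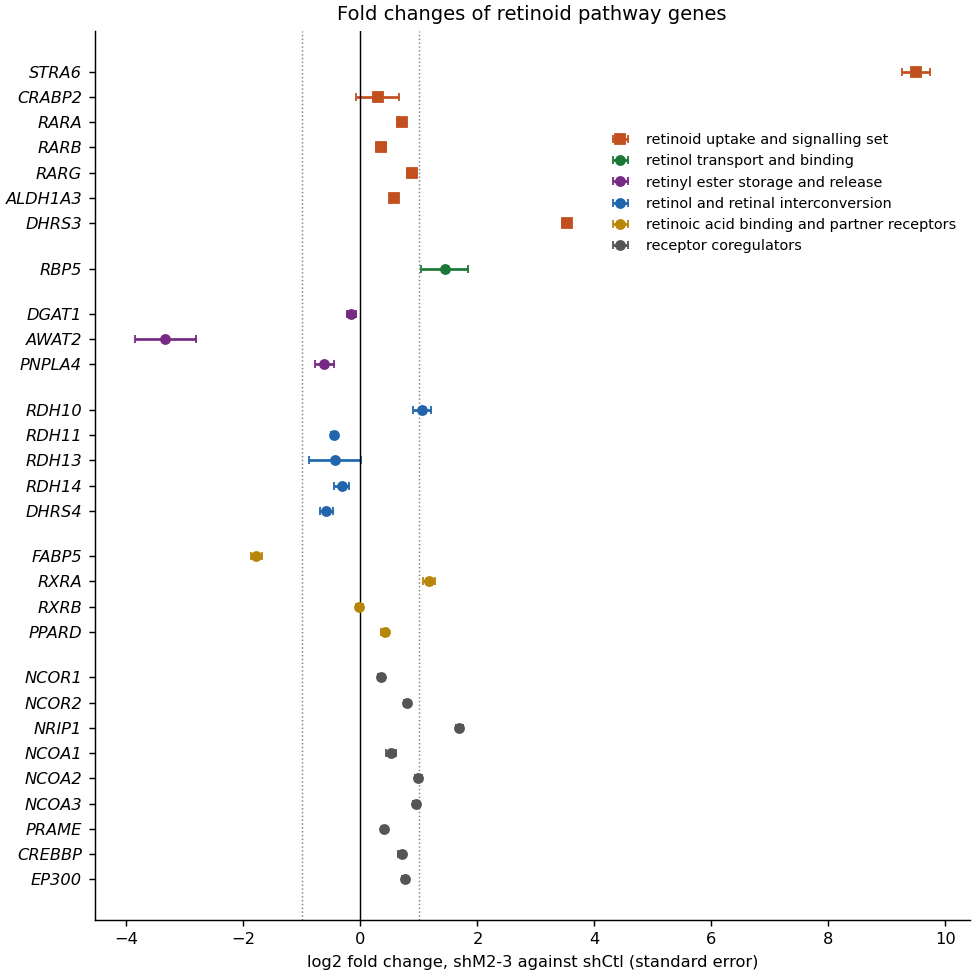
Log2 fold change of shM2-3 against shCtl (x axis) for the tested genes of the set (squares) and of the wider retinoid lists (circles). Whiskers give the standard error worked back from the test statistic, and dotted lines mark 2-fold. For STRA6 this error is 0.236, while DESeq2 gave 0.842, so its whisker should not be read as its full uncertainty. STRA6 at 9.497, whose size depends on a control near 0, and DHRS3 at 3.53 stand far to the right, the receptors lie between 0.36 and 0.88, and AWAT2 and FABP5 lie to the left of the lower line.

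In all, 7 of the 8 genes passed the filter. A gene was called when its adjusted p was 0.05 or less and its fold change 2 or more. By these limits STRA6 and DHRS3 came out higher and none lower, beside 9.24% and 8.93% of the 12157 genes tested. All 7 had both shM2-3 RPKM above both shCtl RPKM, as did 38.9% of all genes. By the fit 6, all but CRABP2, were higher at an adjusted p of 0.05 or less, beside 36.3% of all genes. The median log2 fold change was 0.70, and 0.64 without STRA6. These counts describe the fit and are no test of the set, since it was picked on this contrast and STRA6 passed the filter only where it was high. In order of RPKM the control ran ALDH1A3, RARG, RARB, RARA, DHRS3, CRABP2, then STRA6 and CYP26B1, and only that last pair overlapped in range. In the knockdown DHRS3 stood second after ALDH1A3, followed by RARG, STRA6, RARA, RARB, CRABP2 and CYP26B1, all with separate ranges.

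Over the wider pathway list, 42 of 49 genes were in the tables and 22 were tested. RBP5, RDH10, RXRA and NRIP1 were called higher and AWAT2 and FABP5 lower, 16 were not called, and the median log2 fold change was 0.41. At an adjusted p of 0.05 or less, 13 were higher and 6 lower, against 36.3% and 36.4% of all genes tested. RBP5, AWAT2, RDH10 and RXRA were no longer called by limma on log2(RPKM + 1), a scale that draws low genes toward 0. RBP5 and AWAT2 had passed the filter only through the group where they were high.

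Genes known to be induced by retinoic acid in various cells were examined next. Whether retinoic acid acted on them in these cells was not tested. Of 22 listed, 20 were in the tables and 17 were tested. Of these 6 were called higher and 1 lower, beside 9.24% and 8.93% of all genes, and 10 were not called. At an adjusted p of 0.05 or less, 13 were higher and 2 lower, beside 36.3% and 36.4% of all genes, and the median log2 fold change was 0.51 beside -0.0037 for all genes.

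PLAAT4, a phospholipase and acyltransferase known as a retinoic acid receptor responder, rose from 1.295 and 0.886 RPKM to 18.5 and 19.2 RPKM, log2 4.17 (SE 0.209, edgeR adjusted p = 6.58e-10). ICAM1, an adhesion molecule that inflammatory cytokines also induce, rose from 29.1 and 28.2 RPKM to 95.8 and 98.4 RPKM, log2 1.83 (SE 0.0450, edgeR adjusted p = 3.81e-13). TFAP2A, a transcription factor of neural crest and skin, rose from 8.61 and 7.95 RPKM to 24.1 and 24.8 RPKM, log2 1.63 (SE 0.0575, edgeR adjusted p = 1.68e-11). In each of these genes the groups were far apart beside the distance within a group.

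The HOX genes set position along the body axis and are classical targets of the acid. HOXA5 rose from 4.27 and 3.24 RPKM to 12.5 and 12.2 RPKM, log2 1.78 (SE 0.133, edgeR adjusted p = 4.31e-08). HOXB5 rose from 1.52 and 1.64 RPKM to 4.77 and 3.94 RPKM, log2 1.53 (SE 0.196, edgeR adjusted p = 9.35e-06). HOXD4 overlapped between the groups, with a log2 fold change of 0.06 (edgeR adjusted p = 0.76).

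RARRES1, a membrane protein named for its response to receptor ligands, rose from 1.81 and 1.29 RPKM to 3.01 in both libraries, log2 1.02 (SE 0.225, edgeR adjusted p = 0.0011), and fell under 2-fold in 5 of 11 alternatives, among them without shCtl replicate 2 (0.79). GPRC5A, a membrane receptor induced by the acid in other cells, fell from 38.3 and 38.5 RPKM to 17.8 and 18.3 RPKM, log2 -1.02 (SE 0.0424, edgeR adjusted p = 8.67e-11), which came just under 2-fold without shM2-3 replicate 1 (-0.999). TGM2, a transglutaminase much used as a marker of the acid, was 0.38 higher on the log2 scale (SE 0.0379, edgeR adjusted p = 7.15e-07), at 102 ± 2.33 RPKM in shCtl and 127 ± 2.19 RPKM in shM2-3.

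**Figure D5:**
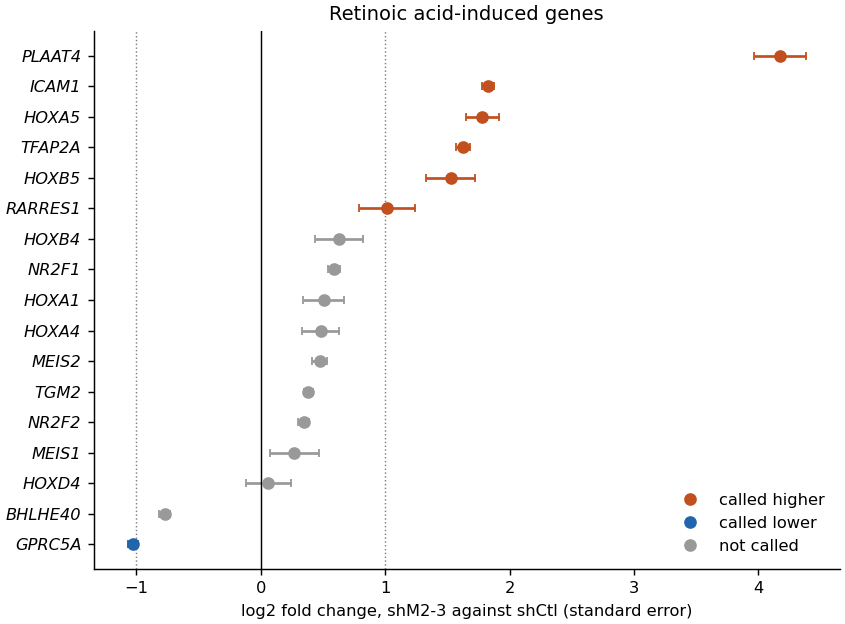
Log2 fold change of shM2-3 against shCtl (x axis) for the 17 tested retinoic acid-induced genes. Whiskers give the standard error worked back from the test statistic, dotted lines mark 2-fold and colour shows the call. PLAAT4 at 4.17 stands apart at the top, 6 genes are called higher and GPRC5A, at -1.02, is called lower.

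Markers of other cell types were checked beside these values. The labels name ES-2 as the only cells, so the values are levels in ES-2 cultures and not numbers of other cells. Bulk RNA cannot tell a change in every cell from a change in some of them. Of 6 fibroblast markers only PDGFRA was above 1 RPKM, and their summed level went from between 7.95 and 8.01 RPKM to between 25.1 and 25.7 RPKM; COL1A2, COL3A1, DCN, LUM and POSTN stayed under 0.42 RPKM. Of 4 leukocyte markers only CD68 was above 1 RPKM, their sum went from between 57.0 and 57.4 RPKM to between 38.8 and 39.9 RPKM, and PTPRC and CD3E were near 0. CD14 went the other way within that list, from 0.0777 and 0.102 RPKM to 0.890 and 0.866 RPKM. Of 4 endothelial markers, CDH5 was above 1 RPKM in every library and fell from 9.14 and 10.2 RPKM to 4.17 and 4.03 RPKM (log2 -1.17, edgeR adjusted p = 2.94e-08). PECAM1 rose from 0.0376 and 0.0308 RPKM to 1.31 and 0.923 RPKM (log2 5.07, edgeR adjusted p = 2.09e-08), and passed the filter only through shM2-3 replicate 1. VWF and KDR were at most 0.295 RPKM. The sum of the 4 endothelial markers ran from 9.40 to 10.6 RPKM in shCtl and from 5.09 to 5.65 RPKM in shM2-3. The keratins KRT8 and KRT18 fell, from 71.9 ± 1.99 to 29.4 ± 0.450 RPKM and from 297 ± 3.25 to 177 ± 2.22 RPKM (SD, n = 2; edgeR adjusted p = 4.2e-11 and 2.93e-09). The part of these markers in the retinoid results was not tested.

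The genes whose levels over the 4 libraries came nearest to those of STRA6 were taken by Euclidean distance of log2(RPKM + 1) among 19625 genes. SERPIND1, a thrombin inhibitor of plasma, was nearest (distance 0.391), at 1 and 4 counts in the control and 676 and 649 in the knockdown. BGLAP, osteocalcin, followed at 0.700 with 0 and 0 against 84 and 85 counts; it lies within a read-through gene, so its counts are uncertain. The complement genes C3 and CFI stood at 0.726 and 0.746, and HAS2, which makes hyaluronan, at 0.822. C3, CFI and HAS2 were between 0.241 and 0.478 RPKM in the control libraries and between 10.1 and 12.9 RPKM in the knockdown libraries.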

How the data were processed

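RNA-seq was made from 4 ES-2 libraries, 2 shCtl and 2 shM2-3. The authors aligned paired reads of 150 bases from non-strand-specific libraries to hg38 with HISAT2 (2.0.4) and quantified RefSeq transcripts with Partek (7.18), dropping ambiguous and poorly mapped reads. The deposited estimated counts are not all whole and were rounded. RPKM values were used as the authors deposited them. Of the 19626 genes, the 12157 above 1 RPKM in at least 1 library were tested with edgeR (4.0.16, R 4.3.3), with TMM factors and the quasi-likelihood test, no covariates, and Benjamini-Hochberg adjustment over all genes tested. Rounding hides differences at a few counts, and depth, between 20051083 and 23978660 estimated counts, sets the precision of low genes. Intervals cover counting error only.

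The genes of the set and the lists were chosen with earlier results of these data known. Named from the lists were each called gene, the highest and lowest of each sub-list, and RXRA, RXRB, FABP5, RDH10, ALDH1A1, ALDH1A2, CYP26A1 and TGM2; RDH11, NCOA2, HOXD4 and marker genes were added after their values were seen. Some listed genes are not reported here. Position and overlaps came from GENCODE 44, promoter windows from RefSeq (GRCh38.p14); all 8 genes had windows. Alternatives were DESeq2 (1.42.0), limma (3.58.1) on log2(RPKM + 0.1) and log2(RPKM + 1), library totals, other filters, a replicate block, a fold limit of 1.5 and leaving out each library. The fit was tested on simulated counts.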

Additional observations from a re-analysis of the deposited data

How the results depend on the processing

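With limma on log2(RPKM + 1), 596 genes of all tested were called higher, and of the other retinoid pathway genes 1 was called higher and 1 lower. With a fold limit of 1.5, 2296 genes were called higher and 2302 lower in all, 4 of the STRA6 set (with RARA and RARG), 9 of the other pathway genes higher and 2 of the retinoic acid-induced genes lower. Leaving out 1 library at a time gave 2 to 5 other pathway genes called higher, fewest without shM2-3 replicate 1, and 0 to 1 retinoic acid-induced genes called lower. Only genes that did not pass the test changed sign, all on leaving out a library: RDH13 ran from -0.96 to 0.42, RXRB from -0.059 to 0.021 and HOXD4 from -0.13 to 0.28, each with its sign changed without shCtl replicate 2 and the latter pair also without shM2-3 replicate 1. The cause was not tested. Leaving out a library keeps 1 sample in a group, which is then assumed to vary like the other group. Of 13 called genes outside the set, 7 kept the call under all 11 alternatives to the fit. The fit with a replicate block called 1123 genes higher and 1079 lower, and changed no call of MAML2, of the STRA6 set or of the tested genes of both wider lists. Deviations from the group means correlated between same-numbered libraries at r = -0.0306 over 12157 genes, and at 0.0739 over the 6051 above the median level. With 2 libraries per group this cannot tell whether the replicate numbers pair the samples. Every setting left the median of all genes within 0.068 of 0 on the log2 scale. Depth limits CYP26B1, CYP26A1, ALDH1A1 and ALDH1A2. With control counts of at most 3, the size of the STRA6 difference is open beyond its interval, which covers counting error only.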

Other observations

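The genes nearest to DHRS3 in level over the 4 libraries, a search added after the data had been seen, were GNG2, a G protein subunit (distance 0.311), ADAM19, a membrane protease (0.419), NBL1, a secreted antagonist of bone morphogenetic proteins (0.540), JAG1, a Notch ligand (0.571), and SERPINF1, a secreted serpin (0.644). JAG1 went from 3.72 and 3.64 RPKM in shCtl to 27.2 and 26.9 RPKM in shM2-3. GNG2 went from 2.71 and 2.64 RPKM to 32.8 and 32.3 RPKM. These genes were chosen for their levels, so the values are a description with no test.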
